A study of Homo sapiens with 4 samples.

Results

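RIPK4, PTN, CACNG7, C1RL, ANO5 and KIAA1217 are 6 of the 58735 genes of the deposited expression table, and were chosen because their transcript was near-absent in one genotype and present in the other. The first 4 were near-absent in TTC28-KO cells and the last 2 in wild-type cells. They were chosen by the counts and FPKM of these same libraries, so their differences between genotypes are a description, with no test. The 4 libraries come from H1299, an established human line of non-small cell lung cancer (NSCLC), grown as untreated cultures: 2 of cells in which TTC28 was targeted with CRISPR/Cas9 (TTC28-KO replicates 1 and 2) and 2 of unedited cells (WT replicates 1 and 2). The labels do not say whether the TTC28-KO cells are 1 clone or a pool, or whether replicates are separate cultures, so a p-value here measures only the spread between these libraries.

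The 6 genes have no common pathway. RIPK4 is a serine/threonine kinase with ankyrin repeats that acts in the differentiation of stratified epithelium, and PTN (pleiotrophin) is a secreted heparin-binding growth factor whose nearest relative is midkine. CACNG7 is a transmembrane protein of the gamma family, whose TARP members escort AMPA-type glutamate receptors in neurons, and C1RL is a secreted serine protease related to complement C1r. ANO5 is an anoctamin, a family of membrane proteins that includes chloride channels and lipid scramblases, and its mutations cause muscular dystrophy. KIAA1217 is the human counterpart of mouse Skt (sickle tail), a gene of intervertebral disc development. In bulk RNA, fewer cells with a transcript cannot be told apart from less of it per cell.

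The libraries held 25120500 to 28885443 counts. TTC28, the targeted gene, had 1042 and 924 counts in TTC28-KO replicates 1 and 2, against 1617 and 1875 in WT replicates 1 and 2, and fell by 0.79 on the log2 scale (SE 0.0764, adjusted p = 2.78e-06). This and every other adjusted p were computed with edgeR (quasi-likelihood test, Benjamini-Hochberg adjustment, threshold 0.05). The test covered the 13079 genes that reached 1 FPKM in 2 or more libraries, FPKM being fragments per kilobase of the gene, scaled by library size. Of these genes, 50.3% passed, 25.1% higher and 25.2% lower in TTC28-KO. The labelled lung tissue was not visible in lineage markers: none of NKX2-1, SFTPA1, SFTPB, SFTPC and NAPSA reached 1 FPKM, with SFTPA1 and SFTPC at 0 counts in each library. The cancer-line markers KRT8, KRT18 and VIM reached it, while EPCAM and CDH1 did not. None of 4 immune, 4 fibroblast or 3 endothelial markers reached 1 FPKM. The 4 fibroblast markers summed to 0.592 and 0.611 FPKM in TTC28-KO libraries, against 0.178 and 0.294 FPKM in WT libraries, but did not move together. COL1A1 had 116 and 108 counts in TTC28-KO libraries, against 32 and 60 in WT libraries, and PDGFRA had 44 and 36, against 10 and 10. DCN went the other way, with 2 and 3 counts in TTC28-KO libraries, against 5 and 11 in WT libraries, and LUM had 0 counts. The part of these markers in the results was not tested.

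The annotated start regions are shown because these genes moved between near-absence and presence, and their CpG content can be compared by eye. RefSeq windows of 300 bases (250 before to 50 after an annotated start, GRCh38.p14) were matched by symbol for 4 of the 6 genes, C1RL, PTN, ANO5 and KIAA1217, and not for RIPK4 and CACNG7. Each is printed 5′ to 3′ on the strand of its gene, with CpG dinucleotides in capitals. The windows are chr12:7109165-7109464 on the minus strand for C1RL and chr7:137343684-137343983 on the minus strand for PTN. On the plus strand they are chr11:22192356-22192655 for ANO5 and chr10:23694477-23694776 for the first of 4 KIAA1217 starts. The ANO5 window lies inside the counted ANO5 entry (21799934 to 22283357), far from its first base. The GENCODE annotation gives ANO5 3 distinct starts, 1 of them coding, and counts over the whole gene do not show which was used. Distances of ANO5 neighbours below are measured from the ends of the whole entry.
C1RL: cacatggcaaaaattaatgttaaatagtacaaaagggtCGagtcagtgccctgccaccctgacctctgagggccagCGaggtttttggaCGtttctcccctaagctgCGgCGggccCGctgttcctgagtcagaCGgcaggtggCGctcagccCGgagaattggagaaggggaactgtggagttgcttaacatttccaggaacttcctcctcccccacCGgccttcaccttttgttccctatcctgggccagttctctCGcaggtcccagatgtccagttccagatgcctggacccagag
PTN: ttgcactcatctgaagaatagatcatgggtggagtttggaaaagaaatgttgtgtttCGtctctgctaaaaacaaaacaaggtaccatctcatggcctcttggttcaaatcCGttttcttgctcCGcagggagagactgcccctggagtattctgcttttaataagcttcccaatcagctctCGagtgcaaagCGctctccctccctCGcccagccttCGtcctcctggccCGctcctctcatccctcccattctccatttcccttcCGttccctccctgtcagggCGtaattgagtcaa
ANO5: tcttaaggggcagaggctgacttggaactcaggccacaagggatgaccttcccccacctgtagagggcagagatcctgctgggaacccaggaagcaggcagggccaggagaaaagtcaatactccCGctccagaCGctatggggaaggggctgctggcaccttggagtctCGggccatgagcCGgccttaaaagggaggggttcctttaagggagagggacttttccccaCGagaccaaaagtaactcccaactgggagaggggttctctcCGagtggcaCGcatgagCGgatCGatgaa
KIAA1217: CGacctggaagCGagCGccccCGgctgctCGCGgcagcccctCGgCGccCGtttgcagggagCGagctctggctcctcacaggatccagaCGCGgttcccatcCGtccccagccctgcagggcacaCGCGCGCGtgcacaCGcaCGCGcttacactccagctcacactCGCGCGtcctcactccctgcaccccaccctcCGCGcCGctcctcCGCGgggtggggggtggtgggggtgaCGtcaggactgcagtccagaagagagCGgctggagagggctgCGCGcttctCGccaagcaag

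The windows of C1RL, PTN and ANO5 were moderate in CpG content, at 11, 10 and 9 CpG, where the median of 35114 RefSeq windows was 14. The first KIAA1217 window was CpG-rich, with 33 CpG and a GC content of 71.3%, and 82.8% of all windows held fewer. The other KIAA1217 starts had 21, 3 and 6 CpG in order along the gene, so this gene has annotated starts of both kinds, and counts over a whole gene do not show which was used. Of 6 short motifs searched on both strands, none of which contains another, the TATA box was spelled TATAAA, the CCAAT box CCAAT, the GC box GGGCGG, the E-box CACGTG, the AP-1 site TGACTCA and the CRE TGACGTCA. The AP-1 word was present in the windows of C1RL and PTN and of KIAA1217 start 4, and in 4.95% of all windows. It lay at -125 from the start in C1RL, at 42 in PTN and at -110 in KIAA1217, each time read on the opposite strand. The first KIAA1217 window held TGACGTCA at -15, a word present in 1.85% of all windows. CCAAT lay in the C1RL, PTN and KIAA1217 start 4 windows and in 34.6% of all windows, while the ANO5 window held none of the 6 motifs. The KIAA1217 start 3 window held the TATA box at -208, -34 and -32, where the last 2 overlap on opposite strands, and the E-box at -23. These words were in 11.5% and 7.26% of all windows, and the GC box, in 45.0%, was in none of the 7 windows of these genes. The motifs were chosen with the sequences in view, and a match is a string of letters, not a shown binding site.

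**Figure D1:**
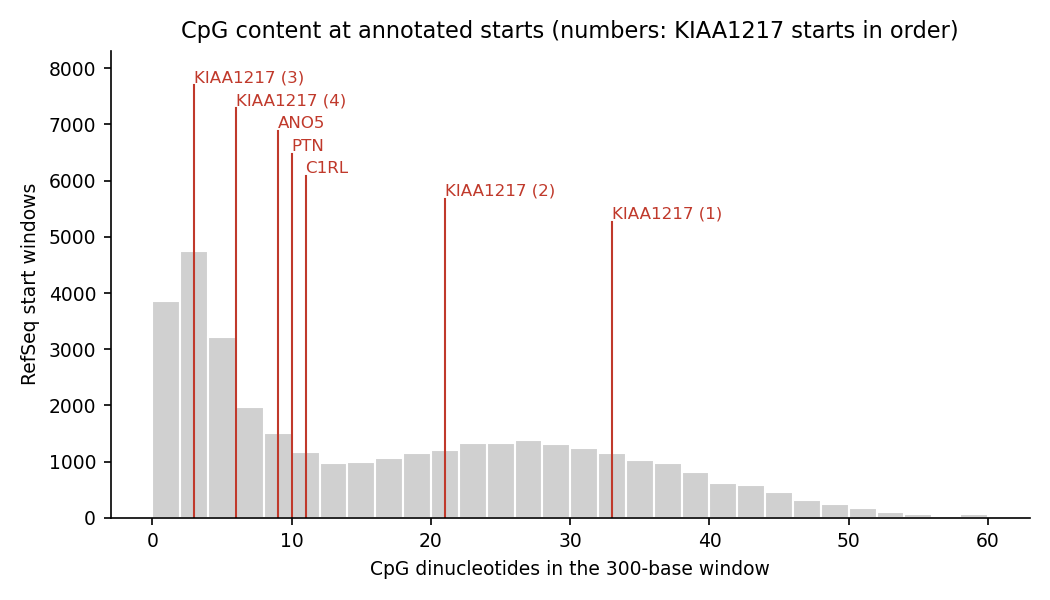
Number of RefSeq start windows (bars, vertical axis) by the number of CpG dinucleotides in 300 bases (horizontal axis, bins of 2 CpG), with lines at the windows of the matched genes. C1RL, PTN and ANO5 lie at 9 to 11 CpG, whereas the 4 KIAA1217 starts spread from 3 to 33.

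RIPK4 (ENSG00000183421, hg38 chromosome 21, 41739369 to 41767106, minus strand) had the highest WT level of the 4 genes near-absent in TTC28-KO. It had 7 and 2 counts in TTC28-KO replicates 1 and 2, against 381 and 425 counts in WT replicates 1 and 2, or 0.0623 and 0.0203 FPKM in TTC28-KO, against 3.61 and 3.87 FPKM in WT. Both TTC28-KO libraries were far below both WT libraries. From summed counts scaled by effective library size, RIPK4 was 87.5-fold lower in TTC28-KO (95% exact Clopper-Pearson interval 45.8 to 192, which covers counting error only, here and below). Without TTC28-KO replicate 1 the ratio was 183-fold lower, since 7 of the 9 counts were in that library. The annotated antisense gene AP001615.1, which shares 461 exonic bases with RIPK4 (11.4% of its exonic length), had 0 counts in each library.

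PTN (ENSG00000105894, chromosome 7, 137227341 to 137343865, minus strand) was the one of the 6 with no read in either TTC28-KO library. It had 0 and 0 counts in TTC28-KO replicates 1 and 2, against 53 and 47 counts in WT replicates 1 and 2, which are 1.18 and 1.01 FPKM. Set against a floor of 3 counts over the group, PTN was at least 32.6-fold lower in TTC28-KO, and the two-sided 95% exact interval, which is wider, allows 26.0-fold. Its level in WT cells was the lowest of the 4 genes near-absent in TTC28-KO, above only 3.58% of 10795 tested protein-coding genes. With 1 TTC28-KO library left out the same floor gives at least 15.1-fold (without replicate 1) and at least 17.4-fold (without replicate 2), because less depth stands behind the 0, with upper 95% exact limits on the TTC28-KO over WT ratio of 0.0827 and 0.0719.

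CACNG7 (ENSG00000105605, chromosome 19, 53909335 to 53943941, plus strand) had 0 and 2 counts in TTC28-KO replicates 1 and 2, against 104 and 114 counts in WT replicates 1 and 2. The levels were 0 and 0.0292 FPKM in TTC28-KO libraries, against 1.42 and 1.49 FPKM in WT libraries. The WT libraries were alike and the TTC28-KO libraries were at or next to 0. The ratio was 106-fold lower in TTC28-KO, with a wide interval of 29.1 to 885 because it rests on 2 counts. Without TTC28-KO replicate 2, which holds both, it was at least 38.0-fold lower against the floor of 3 counts (upper 95% exact limit of the ratio 0.0327), and without TTC28-KO replicate 1 it was 49.5-fold lower.

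C1RL (ENSG00000139178, chromosome 12, 7089587 to 7109273, minus strand) had the smallest fold difference of the 4 genes near-absent in TTC28-KO. It had 19 and 5 counts in TTC28-KO replicates 1 and 2, against 281 and 237 counts in WT replicates 1 and 2, or 0.136 and 0.0408 FPKM in TTC28-KO, against 2.14 and 1.74 FPKM in WT. It was 21.1-fold lower in TTC28-KO (14.0 to 33.2). The TTC28-KO libraries differed from each other by more than counting error, with replicate 1 at 3.30 times replicate 2 after scaling (1.19 to 11.3), and without replicate 1 the ratio was 47.1-fold lower. C1RL shares 672 exonic bases (13.4% of its own) with C1R on the same strand and 205 with C1RL-AS1 on the opposite strand. Reads of these stretches cannot be assigned, since the sources used here do not say whether counting used strand.

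ANO5 (ENSG00000171714, chromosome 11, 21799934 to 22283357, plus strand) went the other way. It had 321 and 284 counts in TTC28-KO replicates 1 and 2, against 7 and 8 counts in WT replicates 1 and 2, or 1.53 and 1.54 FPKM in TTC28-KO, against 0.0354 and 0.0389 FPKM in WT. The 2 libraries of each genotype were close together and the genotypes far apart. ANO5 was 41.3-fold higher in TTC28-KO (24.8 to 74.2), and with any 1 library left out the ratio stayed between 39.6 and 43.2.

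KIAA1217 (ENSG00000120549, chromosome 10, 23694746 to 24547848, plus strand), the longest of the genes, had 530 and 471 counts in TTC28-KO replicates 1 and 2, against 17 and 25 counts in WT replicates 1 and 2. The levels were 1.76 and 1.78 FPKM in TTC28-KO libraries, against 0.0600 and 0.0849 FPKM in WT libraries. WT cells were not empty of the transcript, and the 2 WT libraries did not differ beyond counting error (replicate 1 at 0.713 times replicate 2, 0.361 to 1.37). KIAA1217 was 24.4-fold higher in TTC28-KO (17.9 to 34.1). The release 29 GENCODE annotation gives it 17 transcripts with 12 distinct starts. C1RL has 12 transcripts with 11 distinct starts, CACNG7 has 4 transcripts, ANO5 has 3, and RIPK4 and PTN have 2 each.

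**Figure D2:**
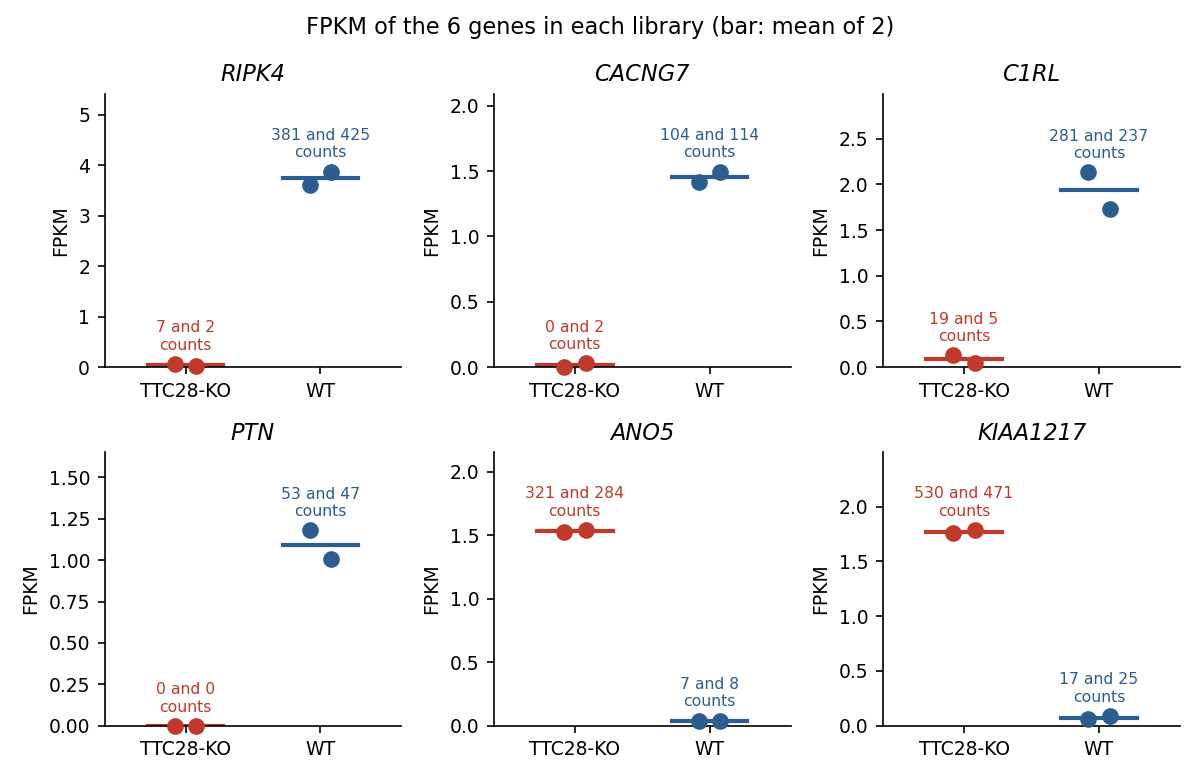
FPKM (vertical axes, linear, a scale per gene) of the 6 genes in each TTC28-KO library (left, red) and WT library (right, blue), with the group mean as a bar and the raw counts beside the points. RIPK4, CACNG7, C1RL and PTN lie at or next to 0 in TTC28-KO libraries, and ANO5 and KIAA1217 lie next to 0 in WT libraries.

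In each of the 6 genes the libraries of the genotypes did not overlap, which was also true of 75.5% of all tested genes and was required by the choice. In the genotype that had it, each transcript was of low abundance: 1.53 and 1.77 FPKM for ANO5 and KIAA1217 in TTC28-KO and 1.09 to 3.74 FPKM for the other 4 genes in WT, where tested protein-coding genes had a median of 7.16 FPKM in TTC28-KO and 7.21 FPKM in WT. All 6 passed the minimum for testing, and each did so only through the genotype in which it was present. A mean under 0.1 FPKM in one genotype and of at least 1 FPKM in the other was found for 45 genes of the table, 17 of them protein coding. Of the 17, 15 were near-absent in TTC28-KO and 2 in WT, and those 2 were ANO5 and KIAA1217. These limits were set with the data in view. Among the 6 genes, the closest to them were C1RL, at a mean of 0.0884 ± 0.0673 FPKM in TTC28-KO (SD, n = 2), and PTN, at 1.09 ± 0.123 FPKM in WT (SD, n = 2). In the authors' deposited table the log2 fold changes, TTC28-KO over WT, were -6.47 for RIPK4, -8.07 for PTN, -6.74 for CACNG7, -4.43 for C1RL, 5.35 for ANO5 and 4.60 for KIAA1217. PTN had 0 counts in both TTC28-KO libraries, so the size of its value depends on the authors' method, which is not named. The counts of PTN give only a bound, at least 32.6-fold against the floor of 3 counts.

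**Figure D3:**
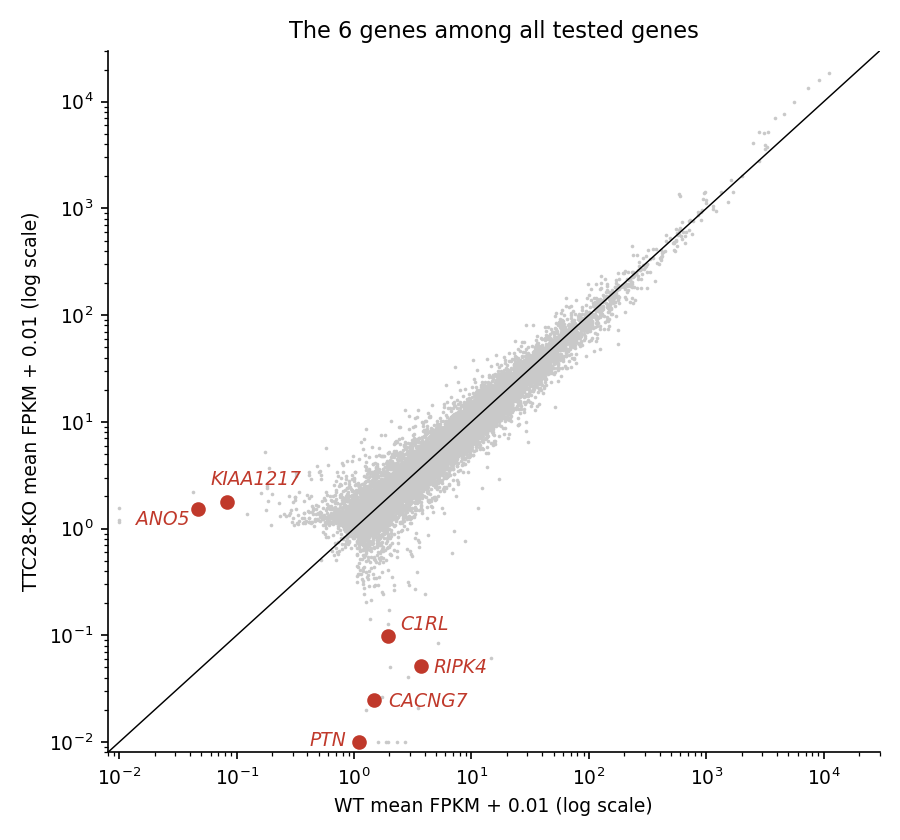
Mean FPKM in TTC28-KO (vertical axis) against WT (horizontal axis), both plus 0.01 on log scales, for all tested genes (grey) and the 6 genes (red), with a line at equal values. RIPK4, CACNG7, C1RL and PTN lie far below the line and ANO5 and KIAA1217 far above it, at levels of 1.09 to 3.74 FPKM in the genotype where each is present.

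The genes around these 6 were then examined, which shows whether genes beside them moved too. Among the 5 nearest tested genes on each side of each, 60 neighbours in all, 32 changed, 12 higher and 20 lower in TTC28-KO. That is 53.3%, close to the 50.3% of all tested genes. For 4 of the 60 neighbours the log2 fold change exceeded 1 in either direction, as it did for 6.01% of all tested genes. The neighbours' log2 fold changes ran from -1.52 to 1.28, none of them as large as the change of the gene they flank. Each of the 6 genes was chosen for a large difference, and genes under the minimum for testing are not among these neighbours. One of those left out is C1RL-AS1, which overlaps C1RL and was 21.7-fold lower in TTC28-KO. With library totals in place of TMM factors, 33 changed, 8 higher and 25 lower. In that setting 51.7% of all tested genes changed, 2702 higher and 4054 lower. Among all 74 tested genes within 1 Mb, 45 changed (60.8%, against 50.3% of all tested genes), 16 higher and 29 lower. The window of C1RL held 38 of the 74, of which 29 changed (76.3%), 22 of them lower. The next largest window, that of CACNG7, held 22, of which 8 changed (36.4%). VSTM1 and SLC5A12, 2 of the 12 higher neighbours, met the minimum for testing only through TTC28-KO.

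RIPK4 lies on a stretch of chromosome 21 with few active genes. Within 1 Mb of it 46 genes are annotated, 31 of them with no count in any library, and 3 were tested. The nearest, PRDM15, a zinc finger gene 31119 bases away, had 380 and 372 counts in TTC28-KO replicates 1 and 2, against 387 and 425 in WT replicates 1 and 2, with a log2 fold change of -0.07 ± 0.107 (SE, adjusted p = 0.600, with a value of 0.01 without TTC28-KO replicate 1). The next ones, C2CD2 and the zinc finger gene ZBTB21, both picked with their values in view, fell by 0.69 and 0.95 on the log2 scale (adjusted p = 0.000209 and adjusted p = 9.00e-06), lower in 2 of 2 TTC28-KO libraries. Of the 10 neighbours 6 fell and 0 rose, where 25.2% of all tested genes fell and 25.1% rose. The median log2 fold change of the 10 was -0.41. The nearest tested gene on the other side, WRB, lies 2310841 bases away and did not pass (adjusted p = 0.0673, with adjusted p = 0.0405 without TTC28-KO replicate 1 and adjusted p = 0.0196 with library totals).

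CACNG7 lies in a row of 3 genes of its own family. CACNG8, the next gene at 19099 bases, had 319 and 218 counts in TTC28-KO replicates 1 and 2, against 304 and 352 in WT replicates 1 and 2, with a log2 fold change of -0.26 ± 0.134 (SE, adjusted p = 0.122, and adjusted p = 0.0151 without TTC28-KO replicate 1). CACNG6, next to CACNG8, had 289 and 247 counts in TTC28-KO libraries, against 384 and 439 in WT libraries, and fell by 0.58 on the log2 scale (SE 0.111, adjusted p = 0.000689). MYADM, the nearest tested gene on the other side, had a log2 fold change of -0.06 (adjusted p = 0.494). Of the 10 neighbours of CACNG7, 2 rose, 1 fell and 7 did not pass, where 25.1% of all tested genes rose and 25.2% fell.

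C1RL was near-absent together with a neighbour. C1RL-AS1, a noncoding gene whose body overlaps the first part of C1RL on the opposite strand, had 4 and 0 counts in TTC28-KO replicates 1 and 2, against 36 and 53 in WT replicates 1 and 2. It was 21.7-fold lower in TTC28-KO (95% exact Clopper-Pearson interval 8.20 to 81.5), beside 21.1-fold for C1RL. Its level was under the minimum for testing, so this is a description. Its overlap with C1RL makes up 3.36% of its exonic bases. Beyond it lies RBP5, a retinol-binding protein gene chosen after its values were seen and also under the minimum for testing. RBP5 had 2 and 3 counts in TTC28-KO libraries, against 11 and 9 in WT libraries, 3.91-fold lower (1.42 to 13.3). In the edgeR test at a minimum of 0.1 FPKM, RBP5 did not pass (log2 fold change -1.92, adjusted p = 0.0554).

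The complement genes on the other side of C1RL had ratios whose intervals include 1. C1R, whose first part overlaps the end of C1RL, had 10 and 15 counts in TTC28-KO libraries, against 16 and 12 in WT libraries, a ratio of 0.914 (0.511 to 1.63). C1S had 9 and 18 counts in TTC28-KO libraries, against 9 and 7 in WT libraries, a ratio of 1.73 (0.898 to 3.43). Both encode proteases of the first complement component and both were at a low level in either genotype. The nearest tested gene beyond RBP5, CLSTN3 (calsyntenin), fell by 0.38 on the log2 scale (SE 0.0848, adjusted p = 0.00231), and LPCAT3, a phospholipid-remodelling enzyme gene on the other side, fell by 0.26 (SE 0.0882, adjusted p = 0.0271, with adjusted p = 0.0741 without TTC28-KO replicate 1 and adjusted p = 0.275 without WT replicate 2, and also lost in DESeq2 and limma). Of the 10 tested neighbours 8 fell, 1 rose and 1 did not pass, at a median of -0.43. Within 1 Mb 22 of 38 tested genes fell and 7 rose, so 76.3% changed, against 50.3% of all tested genes. Over all tested genes 25.2% fell and 25.1% rose, and the cause of the difference was not tested.

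**Figure D4:**
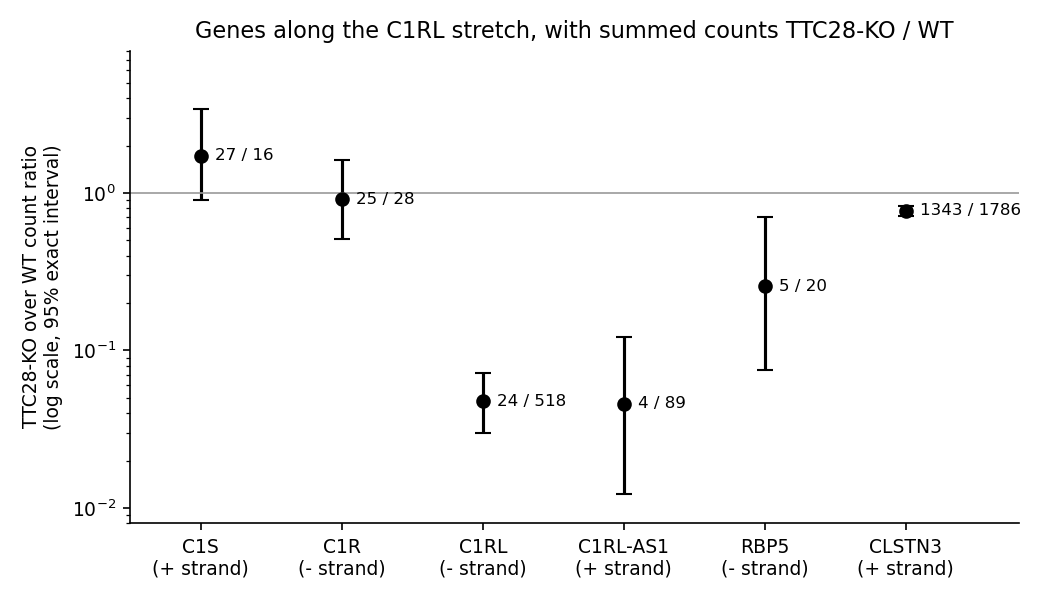
Ratio of summed scaled counts, TTC28-KO over WT, for 6 genes in their order along the C1RL stretch of chromosome 12 (vertical axis, log scale), with 95% exact Clopper-Pearson intervals and the summed counts of TTC28-KO and WT beside each point. C1RL and C1RL-AS1 lie at 0.0474 and 0.0460, while C1S, C1R and CLSTN3 lie between 0.770 and 1.73.

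PTN and ANO5 lie in sparsely expressed stretches. Within 1 Mb of PTN 28 genes are annotated, of which 21 had no count in any library and 3 were tested. DGKI, a diacylglycerol kinase gene and the next protein-coding gene beyond the PTN start, had 0 counts in each TTC28-KO library, against 1 and 0 in WT replicates 1 and 2. The nearest tested gene on that side, the pseudogene AC090498.1, had a log2 fold change of 0.49 (adjusted p = 0.206), and MTPN (myotrophin), 1249988 bases away on the other side, one of -0.16 (adjusted p = 0.0511, though past the threshold without TTC28-KO replicate 2, with library totals, with no minimum and with the replicate block, at adjusted p = 0.00905 to adjusted p = 0.0468). Of the 10 neighbours of PTN 3 rose, 0 fell and 7 did not pass, where 25.1% of all tested genes rose and 25.2% fell. AC009264.1, the nearest gene beyond the PTN end, had 0 counts in each TTC28-KO library, against 2 counts in each WT library.

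Within 1 Mb of ANO5 20 genes are annotated, 13 with no count, and the one tested gene, SVIP, an inhibitor of ER-associated degradation, rose by 0.65 on the log2 scale (SE 0.146, adjusted p = 0.00228), higher in 2 of 2 TTC28-KO libraries. Both adjacent protein-coding genes were silent, NELL1 and SLC17A6 having 0 counts in each library. The antisense gene AC107886.1 inside ANO5 had 4 and 1 counts in TTC28-KO libraries, against 0 and 0 in WT libraries. AC107886.1 shares 88 exonic bases with ANO5 (17.1% of its own), and reads of that stretch cannot be assigned without knowing whether counting used strand. AC104009.1, on the opposite strand with its own end 373 bases beyond the ANO5 end, had 6 and 3 counts in TTC28-KO libraries, against 0 and 2 in WT libraries (ratio 4.61, 0.954 to 43.8). PRMT3, an arginine methyltransferase gene 1290640 bases before ANO5, fell by 0.70 on the log2 scale (SE 0.0859, adjusted p = 2.24e-05).

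KIAA1217 is flanked by expressed genes. ARHGAP21, a GTPase-activating protein gene 35761 bases beyond its end, had 1834 and 1733 counts in TTC28-KO libraries, against 1679 and 1799 in WT libraries, with a log2 fold change of 0.07 ± 0.0690 (SE, adjusted p = 0.391). OTUD1, a deubiquitinase gene 252356 bases before its start, had 286 and 285 counts in TTC28-KO libraries, against 164 and 187 in WT libraries, and rose by 0.74 on the log2 scale (SE 0.135, adjusted p = 0.000514). Of the 10 neighbours of KIAA1217 3 rose, 2 fell and 5 did not pass, with a median of 0.01. Of all tested genes, 25.1% rose and 25.2% fell. The 4 genes annotated inside KIAA1217 held 2 counts in all, both in AL353583.1 in TTC28-KO replicate 2.

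**Figure D5:**
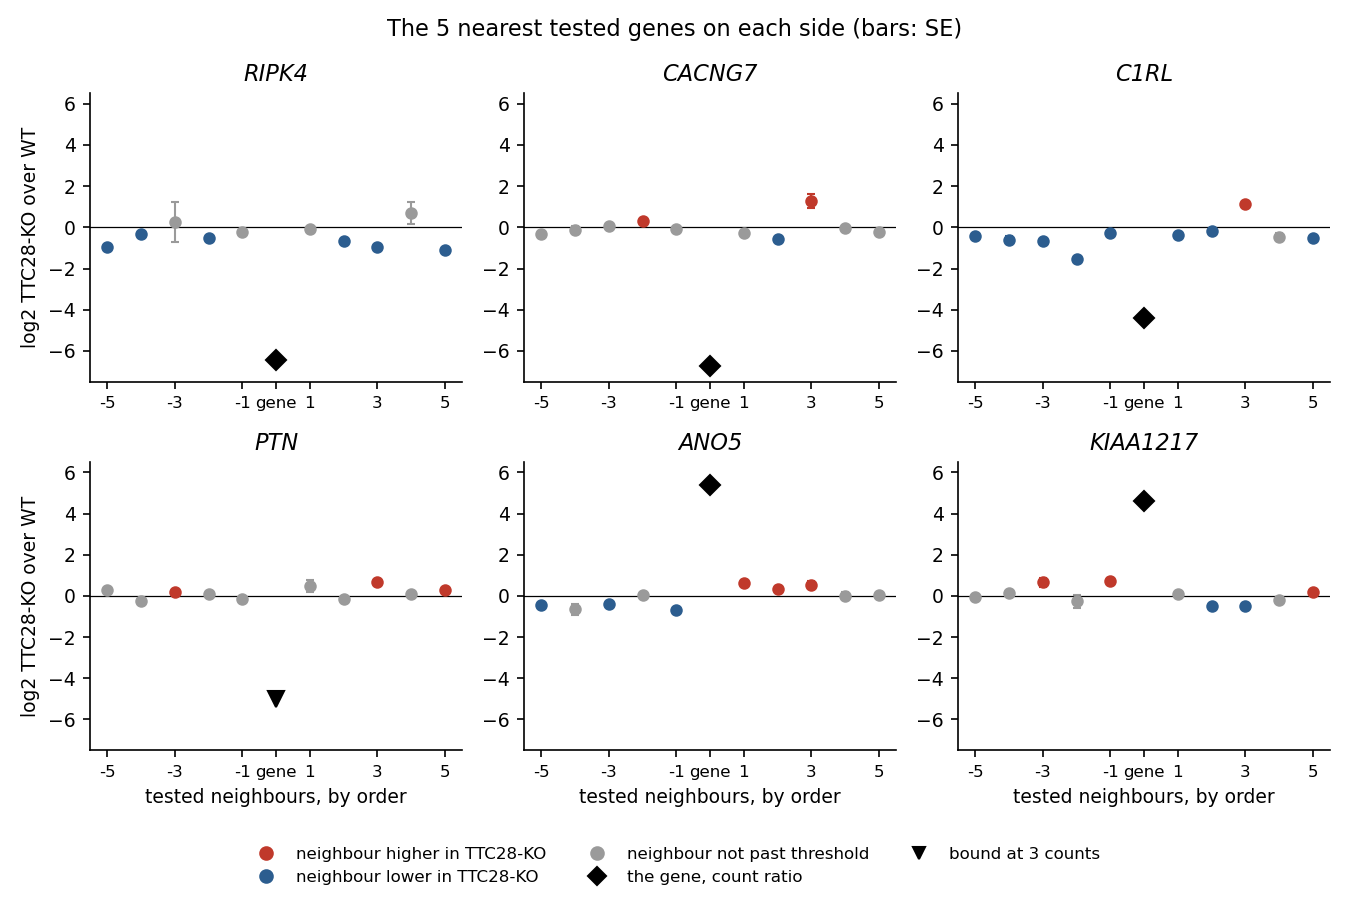
Log2 ratio, TTC28-KO over WT (vertical axis), of each gene (black diamond, from summed counts, or a triangle at the bound for PTN) and of its 5 nearest tested genes on each side in chromosome order (circles, edgeR log2 fold change with SE), coloured by call. The 60 neighbours lie between -1.52 and 1.28, while RIPK4, CACNG7, C1RL, ANO5, KIAA1217 and the PTN bound lie beyond that range.

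Family members and partners of the 6 genes were compared next. Of 75 listed genes 30 were tested, and 12 of them rose, 5 fell and 13 did not pass. That is 56.7% changed, against 50.3% of all tested genes, at a median log2 fold change of 0.12, against -7.07e-05 over all tested genes. With library totals in place of TMM factors, 10 rose and 8 fell, where 2702 of all tested genes rose and 4054 fell. The relatives' log2 fold changes ran from -1.12 to 1.89.

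Among 13 genes of the RIPK family and of RIPK4-linked epithelial biology, 5 were tested, of which 2 rose and 1 fell, at a median of 0.11. Of all tested genes, 25.1% rose and 25.2% fell. The kinases RIPK1 and RIPK2 did not pass, with log2 fold changes of -0.08 and 0.11 (adjusted p = 0.348 and adjusted p = 0.283), while RIPK3 had 3 and 0 counts in TTC28-KO libraries, against 0 and 0 in WT libraries. PKP1 (plakophilin), a described substrate of RIPK4, had 0 counts in each library. The desmosome genes JUP (plakoglobin) and DSP (desmoplakin) rose. JUP was at 9.26 and 8.69 FPKM in TTC28-KO libraries, against 2.28 and 2.59 FPKM in WT libraries (log2 fold change 1.89 ± 0.0927, SE, adjusted p = 8.27e-09). DSP was at 22.0 and 21.9 FPKM in TTC28-KO libraries, against 11.5 and 12.8 FPKM in WT libraries (0.86 ± 0.0651, SE, adjusted p = 3.70e-07). The transcription factor gene KLF4 fell by 0.49 on the log2 scale (SE 0.0725, adjusted p = 9.39e-05). TP63, the regulator of stratified epithelium, had 3 counts at most in any library.

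Midkine, the relative of PTN, was abundant in both genotypes. MDK was at 95.8 and 77.8 FPKM in TTC28-KO libraries, against 56.4 and 55.3 FPKM in WT libraries, and rose by 0.64 on the log2 scale (SE 0.0829, adjusted p = 3.45e-05). Its level in either genotype was far above the 1.09 FPKM of PTN in WT. Among 16 genes of PTN receptors and relatives 9 were tested, of which 4 rose and 2 fell, at a median of -0.02. Of all tested genes, 25.1% rose and 25.2% fell. LRP1, a large endocytic receptor, was at 6.38 ± 0.221 FPKM in TTC28-KO libraries, against 2.22 ± 0.315 FPKM in WT libraries (SD, n = 2 each, log2 fold change 1.52 ± 0.0827, SE, adjusted p = 1.98e-08). The integrin gene ITGAV rose by 0.46 (SE 0.0682, adjusted p = 0.000104), and NCL (nucleolin) fell by 0.45 on the log2 scale (SE 0.0661, adjusted p = 9.64e-05). The phosphatase receptor PTPRZ1 stayed under 1 FPKM, with 151 and 135 counts in TTC28-KO libraries, against 176 and 208 in WT libraries. In the edgeR test at a minimum of 0.1 FPKM, PTPRZ1 was lower in TTC28-KO (log2 fold change -0.40 ± 0.146, SE, adjusted p = 0.0473). At that minimum 35.0% of 21208 tested genes passed. The kinase receptor ALK had 0 and 0 counts in TTC28-KO libraries, against 1 and 1 in WT libraries.

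Of 14 TARP and AMPA receptor genes 5 were tested, of which 0 rose and 2 fell, at a median of -0.26. Of all tested genes, 25.1% rose and 25.2% fell. The 2 that fell were CACNG6, described above, and CNIH3 (cornichon), an auxiliary protein of AMPA receptors. CNIH3 was at 1.17 and 1.08 FPKM in TTC28-KO libraries, against 2.38 and 2.54 FPKM in WT libraries, and fell by 1.12 on the log2 scale (SE 0.117, adjusted p = 5.64e-06). The scaffold gene DLG4 did not pass (log2 fold change 0.15, adjusted p = 0.138). The receptor subunits themselves were hardly expressed: GRIA3 had 0 counts in each library and GRIA1, GRIA2 and GRIA4 had at most 8.

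Of 22 complement genes 6 were tested, of which 2 rose and 0 fell, at a median of 0.10. Of all tested genes, 25.1% rose and 25.2% fell. The membrane regulator CD46 was at 13.5 and 15.0 FPKM in TTC28-KO libraries, against 8.66 and 8.27 FPKM in WT libraries (0.76 ± 0.0704, SE, adjusted p = 2.11e-06), and CLU (clusterin) rose by 0.25 (SE 0.0793, adjusted p = 0.0186, with adjusted p = 0.0532 without WT replicate 1 and adjusted p = 0.135 without WT replicate 2, and adjusted p = 0.0690 with library totals). C5 and CD59 did not pass (log2 fold changes -0.27 and -0.10, adjusted p = 0.0529 and adjusted p = 0.194), but with library totals both did (adjusted p = 0.0191 and adjusted p = 0.0360), as did C5 with the replicate block (adjusted p = 0.0476). C1QA, C1QB and C1QC had 0 counts in each library.

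Other anoctamins differed by far less than ANO5. Of 9 anoctamin genes 4 were tested, of which 3 rose and 0 fell, at a median of 0.48. Of all tested genes, 25.1% rose and 25.2% fell. ANO6, a widely expressed lipid scramblase, was at 17.8 and 18.4 FPKM in TTC28-KO libraries, against 10.9 and 11.6 FPKM in WT libraries (0.69 ± 0.0628, SE, adjusted p = 1.83e-06). ANO4 was at 1.49 and 1.22 FPKM in TTC28-KO libraries, against 0.458 and 0.478 FPKM in WT libraries (1.54 ± 0.184, SE, adjusted p = 1.79e-05). It met the minimum for testing only through TTC28-KO, and with no minimum its log2 fold change was 1.52 (adjusted p = 7.83e-15). In that setting the value of TTC28 was smaller too (adjusted p = 1.37e-20, against adjusted p = 2.78e-06), so the smaller value of ANO4 is not stronger support. ANO10 rose by 0.27 (SE 0.0914, adjusted p = 0.0262), a call lost without TTC28-KO replicate 2 (adjusted p = 0.121) and without WT replicate 2 (adjusted p = 0.209), with library totals (adjusted p = 0.0789) and in DESeq2 and limma, and ANO8 was at 0.14 (adjusted p = 0.256, and adjusted p = 0.0351 without TTC28-KO replicate 2). SRCIN1, the relative of KIAA1217 and a regulator of Src kinase, rose by 0.46 (SE 0.118, adjusted p = 0.00507), a call lost without WT replicate 2 (adjusted p = 0.0734) and in limma. It too met the minimum only through TTC28-KO, and with no minimum its log2 fold change was 0.45 (adjusted p = 0.00234).

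The genes with the most similar profiles were found by the Euclidean distance of log2(FPKM + 0.1) over the 4 libraries among 16587 protein-coding genes with a count, a description that follows from the shared off or on pattern. ANO5 and KIAA1217 were each other's nearest gene, at a distance of 0.55 on the log2 scale. After them came POU3F3, a neural transcription factor gene, for ANO5 (0.94) and LIMCH1, an actomyosin regulator gene, for KIAA1217 (0.97). TNC, the matrix protein tenascin-C, was nearest to both PTN (0.35) and CACNG7 (0.42), with 3 and 2 counts in TTC28-KO libraries, against 314 and 327 in WT libraries. EPHX2, a soluble epoxide hydrolase gene, followed for PTN (0.41) and FAM133A for CACNG7 (0.48). RIPK4 was closest to MYO10, a filopodial myosin (0.58), and NEFH, the heavy neurofilament chain (0.63), and C1RL to the dehydrogenase gene DHRS2 (0.51) and the sorting receptor gene SORCS2 (0.97). Each of these genes lies on another chromosome than the gene it resembles.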

How the data were processed

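RNA libraries of 4 H1299 samples were made with a TruSeq kit, per the labels. The submitters' processing notes list HISAT2 2.0.5 and hg38. How reads were assigned to genes, with or without strand, and which annotation was used is not given here. The deposited table gives raw counts for each gene in each library, per the file headers, and FPKM values that the authors derived from these counts, the gene length and a library size. The authors also deposited a signal column per genotype (mean scaled counts, not used here), a log2 fold change, and a p-value and adjusted p-value from a test that the headers do not name, of which only the fold changes were copied.

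The 13079 genes that reached 1 FPKM in 2 or more libraries were fitted with edgeR 4.0.16 under R 4.3.3 (TMM factors, no covariates, two-sided quasi-likelihood test). Benjamini-Hochberg adjustment covered all of them. The fit was tested on simulated data. Ratios of the 6 genes use summed counts over TMM effective sizes, with 95% exact Clopper-Pearson intervals, and a floor of 3 counts over a group at 0. GC, CpG and motifs come from RefSeq windows, exon overlaps from GENCODE release 29. Named genes were the 6, TTC28, overlapping and nearest genes, up to 4 per list by p, and the 2 most alike. Other named genes (PKP1, TP63, RIPK3, PTPRZ1, ALK, the GRIA and C1Q genes, DGKI, SLC17A6, C2CD2, ZBTB21, RBP5) were picked with their values in view. Some genes of the named-gene rule are not reported here. The members and lists were chosen with earlier results of these data known. Alternatives were median-of-ratios factors, library totals, minima of 0.1 and 5 FPKM or none, DESeq2 1.42.0, limma 3.58.1 on log2(FPKM + 0.5), each library left out, and a replicate block.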

Additional observations from a re-analysis of the deposited data

How the results depend on the processing

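The ratios of RIPK4, ANO5 and KIAA1217 stayed within their counting intervals with each library left out, and PTN has a bound only. Leaving out a library moved the TTC28-KO over WT ratio of CACNG7 between 0 and 0.0202 and that of C1RL between 0.0213 and 0.0702, all still below 1. The count of changed genes was 4346 with a minimum of 5 FPKM, where 7490 genes were tested (58% changed). The count of changed neighbours was 17 of 60 with no minimum, where the nearest genes include many of few counts. That is 28.3% of the neighbours, beside 25.7% of the 30992 genes tested in that setting. The replicate numbers share only a number (correlation of deviations -0.0014), and a replicate block gave 7108 changed genes, 36 neighbours and 19 relatives. DESeq2 gave 5537, 25 and 16, and limma 5639, 22 and 15. As shares of 13079 genes, 60 neighbours and 30 relatives, the block gave 54.3%, 60% and 63.3%. The shares were 42.3%, 41.7% and 53.3% in DESeq2, and 43.1%, 36.7% and 50% in limma. With library totals, changed genes split into 2702 higher and 4054 lower. With each library left out, changed genes numbered 4854 to 6456, neighbours 23 to 31, and relatives 14 to 19. TTC28 kept its call in the 11 alternatives that tested it, at -0.87 to -0.70, and was under the minimum of 5 FPKM. PRDM15, not past the threshold in any setting, ranged from -0.16 to 0.0128 with 1 library left out (the highest without TTC28-KO replicate 1), and the cause was not tested. Depth limits PTN and CACNG7 most, since 1 count is 0.0239 FPKM for PTN in TTC28-KO replicate 2.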

Other observations

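Besides the 6 genes, 11 protein-coding genes were near-absent in TTC28-KO (mean under 0.1 FPKM) and at a mean of at least 1 FPKM in WT. They were chosen after their values were seen, and are given as values. DPPA2, a gene of pluripotent cells, had 0 and 0 counts in TTC28-KO libraries, against 96 and 105 in WT libraries. GALNT14, a glycosyltransferase gene, had 0 and 0 counts in TTC28-KO libraries, against 197 and 255 in WT libraries. DPEP3, a dipeptidase gene, had 0 and 0 counts in TTC28-KO libraries, against 115 and 136 in WT libraries. MYO10 had 4 and 4 counts in TTC28-KO libraries, against 1208 and 1402 in WT libraries. The 11 lie on chromosomes 2, 3, 5, 8, 9, 16, 19, 22 and X, with 2 each on chromosomes 19 and X.

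The noncoding gene AC008440.3, next to MYADM on chromosome 19, on its side away from CACNG7, and also chosen after its values were seen, had 2 and 3 counts in TTC28-KO libraries, against 20 and 15 in WT libraries. It was 6.84-fold lower in TTC28-KO (95% exact Clopper-Pearson interval 2.67 to 22.4), with adjusted p = 0.00440 in edgeR's quasi-likelihood test at a minimum of 0.1 FPKM (Benjamini-Hochberg adjustment), where 35.0% of 21208 tested genes passed. ITGB3, an integrin gene of the PTN list under the 1 FPKM minimum, had 51 and 38 counts in TTC28-KO libraries, against 112 and 128 in WT libraries, with a log2 fold change of -1.41 ± 0.209 (SE, adjusted p = 0.000155 at the same minimum).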
